A study of Homo sapiens with 24 samples.

Results

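Serine and folate one-carbon enzymes are described here across all 24 libraries of the series, as a set of 10 listed genes out of the 21386 genes in the count tables. The set was put together because MTHFD2 was strongly reduced in A375 cells with MCM7 knock-down. It was thus chosen by the MTHFD2 counts of the A375 shMCM7 libraries. Fold changes and calls from comparisons that include these libraries are given as a description and not as evidence. The parental A375 libraries and the A549 libraries were in view at that choice too, so their values are not independent of it either. A375 is a human melanoma cell line and A549 a human lung adenocarcinoma line. Each line was sequenced in 4 groups of 3 biological replicates, namely shMCM7 cells kept with Dox for 72 hours at 1 μg/ml or without Dox (noDox), and parental cells with Dox or noDox. Cells of every group, the parental controls included, were held at the G1/S boundary by a double thymidine block. The shMCM7 cells were transduced populations carrying a Dox-inducible shRNA against MCM7 (a subunit of the replicative helicase) in the pRSIT17 vector at a multiplicity of infection of 1.4, whereas the parental cells carried no vector. As a consequence, the vector and the knock-down cannot be told apart where shMCM7 and parental cells are compared with Dox.

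One-carbon metabolism moves single carbon units on folate to build purines, thymidylate and methionine, and serine is the main donor of these units in proliferating cells. In mitochondria, SHMT2 takes the carbon from serine, MTHFD2 oxidizes it and MTHFD1L releases it as formate, which MTHFD1 loads back onto folate in the cytosol. There, SHMT1 runs the serine step and TYMS uses the carbon to make thymidylate. The serine itself can be made from glycolytic 3-phosphoglycerate by PHGDH, PSAT1 and PSPH in turn. In many cells the transcription factor ATF4 controls the serine synthesis genes and MTHFD2.

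Depth was 146656792 to 283721575 counts per library in A375 and 17911338 to 23452823 counts in A549, so that values of A549 carry more counting error. The lowest count of any of the 10 genes in any library was 8553 in A375 (MTHFD1L) and 264 in A549 (ALDH1L2). Values are given in CPM, the counts of a gene scaled to the library size, with TMM factors within each line. The melanoma factor SOX10 was at 500 to 676 CPM in A375 and had 0 counts in A549, and 6 of the 7 melanoma markers tested were called higher in parental A375 than in parental A549 cells. The melanocyte factor MITF was called lower, at 26.7 to 45.0 CPM in A375 and 35.7 to 50.8 CPM in A549, and the pigment cell genes MLANA and TYR had at most 2 counts in any A375 library. The epithelial keratin KRT8 was at 1798 to 2756 CPM and AKR1B10 at 2997 to 4323 CPM in A549, where the alveolar markers NKX2-1 and SFTPB had at most 1 count (NKX2-1 had up to 95 counts in A375). Of the 8 lung epithelial markers tested, 7 were called higher in A549. The labels were then checked with the targeted gene. In A375, MCM7 was at 76.8, 76.3 and 77.4 CPM in the 3 shMCM7 Dox libraries and between 344 and 369 CPM in all 6 parental libraries. Of the shMCM7 noDox libraries, replicates 2 and 3 had 353 and 359 CPM, but replicate 1 stood apart with 131 CPM of MCM7. In A549, the libraries low in MCM7 carry 3 different labels, with 95.6 CPM in the library labelled shMCM7 Dox 3, 100.3 CPM in the library labelled shMCM7 noDox 2 and 90.3 CPM in the library labelled parental noDox 2. The other 9 A549 libraries had 294 to 339 CPM, including those labelled shMCM7 Dox 1 and 2. The A549 labels thus go against the MCM7 counts, and each A549 comparison by label carries this limit.

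MTHFD2 (ENSG00000065911, chromosome 2 from 74198562 to 74217565 on GRCh38) encodes the NAD-dependent dehydrogenase and cyclohydrolase of the mitochondrial arm. Its level was 77.1, 79.4 and 77.7 CPM in the A375 shMCM7 Dox libraries, and 213, 379 and 318 CPM in the shMCM7 noDox libraries. Parental A375 cells had 408, 353 and 356 CPM of MTHFD2 with Dox and 324, 346 and 259 CPM without. Every other A375 library was thus above the 3 shMCM7 Dox libraries, and the lowest of the others was shMCM7 noDox 1, the library that also had little MCM7. How many of all genes lay apart from every other A375 library in this way is not given. The fitted log2 fold change of MTHFD2 in shMCM7 cells with Dox against noDox was -1.96 ± 0.17 (SE, n = 3 against 3 libraries), a 3.90-fold lower level. Without shMCM7 noDox 1 it was -2.16, and with each library left out in turn it lay between -2.16 and -1.77. In bulk RNA, fewer cells that express a gene and less RNA of it per cell cannot be told apart.

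The shRNA target and the stretches near the start sites of the genes with the largest differences are shown to give the sequences behind these values. The shRNA target is printed as in the labels, and it matched 5 of the 13 GENCODE transcripts of MCM7 and 0 of the 141 transcripts of the 10 genes. Only exact matches of all 21 bases were searched, so partial matches to these genes were not tested. The other sequences are RefSeq bases on the plus strand of GRCh38.p14, with capitals for matches to 4 motifs searched on both strands.
MCM7 shRNA target: cagaggaggatttctacgaaa
MTHFD2, chr2:74198365-74198561: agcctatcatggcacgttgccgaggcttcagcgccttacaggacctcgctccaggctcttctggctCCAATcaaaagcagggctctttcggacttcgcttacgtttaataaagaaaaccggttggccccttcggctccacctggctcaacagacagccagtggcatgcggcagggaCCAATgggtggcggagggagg
PSAT1, chr9:78296875-78297124: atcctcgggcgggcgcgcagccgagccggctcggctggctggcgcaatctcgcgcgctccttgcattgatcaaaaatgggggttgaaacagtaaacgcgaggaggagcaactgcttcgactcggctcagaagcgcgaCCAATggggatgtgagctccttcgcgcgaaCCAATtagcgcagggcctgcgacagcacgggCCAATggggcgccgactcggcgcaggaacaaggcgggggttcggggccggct
MTHFD1L, chr6:150866346-150866375: gccgccggctcTGATGCAAtcgcgccgggc
The motifs were the composite C/EBP-ATF element (TGATGNAA, which factors such as ATF4 can bind), the E-box (CACGTG), the cyclic AMP element (TGACGTCA) and the CCAAT box (CCAAT). They occur in 3.62%, 7.26%, 1.85% and 34.6% of the 35116 windows of 300 bases around RefSeq start sites (250 before and 50 after). Of the 10 genes, 7 had a window, and those of SHMT2, ALDH1L2 and PSPH were not used here. The MTHFD2 stretch holds 2 CCAAT boxes, at -184 and -74 from its start site, and the PSAT1 stretch holds 3, at -113, -83 and -52. The printed MTHFD1L stretch holds the C/EBP-ATF letters at -129 of a start site at 150866486, and an E-box lies at -154. The same C/EBP-ATF letters lie at -90 of another start site of the gene and at position 25, past the start, of a further one. MTHFD1L has 4 start sites in the table, and this stretch lies within the gene as GENCODE gives it. A match is a match of letters and was not tested as a binding site.

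In A375, every gene of the set had a lower mean in shMCM7 Dox than in shMCM7 noDox libraries. Against the parental noDox libraries, SHMT2 and ALDH1L2 overlapped. Of the 10 genes, all tested, 2 were called lower, namely MTHFD2 and PSAT1 (a call needed a 1.5-fold change or more together with p under 0.01 and FDR under 0.05), where 12% of all 16087 genes tested were called (6.45% lower and 5.58% higher). All 10 log2 fold changes were negative, against 49.4% of all genes, and their median was -0.37 against 0.00 for all genes. For 9 of the 10, every shMCM7 Dox library was below every shMCM7 noDox library, which held for 27.8% of all genes in that direction, and ALDH1L2 was the exception. As these libraries chose the set, nothing is read from these counts.

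**Figure D1:**
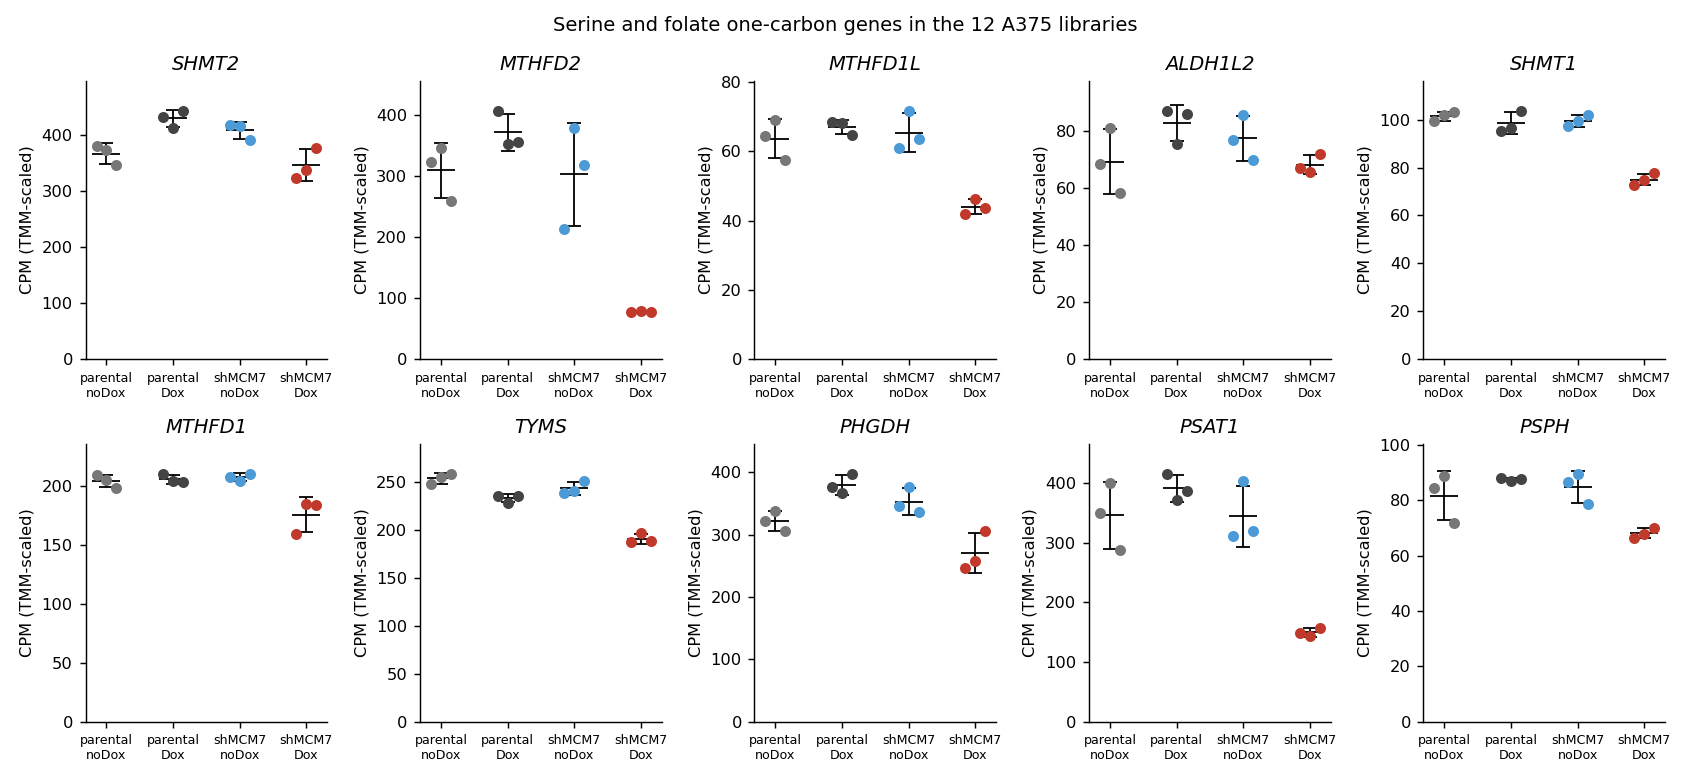
Level of each of the 10 genes in CPM (vertical axes from 0) in the 12 A375 libraries; points are libraries, and bars give the mean ± SD of 3. MTHFD2 and PSAT1 are set apart in the shMCM7 Dox libraries (77.1 to 79.4 and 143 to 157 CPM), while ALDH1L2 overlaps with the noDox libraries.

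Within the mitochondrial arm the sizes differed. MTHFD1L (ENSG00000120254, chromosome 6 from 150865549 to 151101887), the formate-releasing enzyme, was at 42.0, 46.3 and 43.6 CPM in shMCM7 Dox libraries and 61.0, 71.7 and 63.4 CPM in shMCM7 noDox libraries, with 57.6 to 68.9 CPM in the 6 parental libraries. Its log2 fold change of -0.58 ± 0.071 fell just short of the 1.5-fold threshold, and MTHFD1L was called lower when shMCM7 Dox 2, shMCM7 noDox 1 or shMCM7 noDox 3 was left out (-0.62, -0.62 and -0.59). SHMT2 (ENSG00000182199, chromosome 12 from 57229327 to 57234935), the serine hydroxymethyltransferase of mitochondria, had 323, 337 and 377 CPM with Dox and 418, 416 and 390 CPM without. The parental noDox libraries had 346 to 381 CPM of SHMT2, so that the shMCM7 Dox libraries overlapped with them, and the log2 fold change within shMCM7 cells was -0.24 ± 0.067. ALDH1L2 (ENSG00000136010, chromosome 12 from 105019784 to 105084577), which oxidizes formyl-folate to CO2 in mitochondria, had 67.0, 65.4 and 71.9 CPM with Dox and 76.9, 85.5 and 69.7 CPM without (log2 fold change -0.19 ± 0.077). MTHFD2 therefore stood -1.96 from its noDox level on the log2 scale and the other 3 genes of its arm between -0.58 and -0.19.

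The cytosolic genes had small and even differences. SHMT1 (ENSG00000176974, chromosome 17 from 18327860 to 18363563) was at 72.7, 74.6 and 77.6 CPM in shMCM7 Dox libraries, and at 95.4 to 103.7 CPM in the other 9 A375 libraries. The trifunctional enzyme MTHFD1 (ENSG00000100714, chromosome 14 from 64388031 to 64463457) was at 159, 185 and 184 CPM in shMCM7 Dox libraries against 199 to 211 CPM in the others. TYMS (ENSG00000176890, chromosome 18 from 657604 to 673578), the thymidylate synthase, was at 188, 197 and 188 CPM against 228 to 259 CPM. Each of these genes was thus lower in the 3 shMCM7 Dox libraries than in all other A375 libraries, with log2 fold changes against shMCM7 noDox of -0.41 ± 0.050 for SHMT1, -0.24 ± 0.065 for MTHFD1 and -0.35 ± 0.050 for TYMS. Of all genes, 27.8% lay apart with lower values against shMCM7 noDox and 29.1% against parental Dox libraries. The share against all other A375 libraries together is not given. The exons of TYMS share 967 bases with ENOSF1 on the other strand, those of MTHFD1 share 756 with AL122035.2, those of MTHFD2 share 1324 with SLC4A5 and those of SHMT2 share 427 with AC137834.2. Whether reads were counted by strand is not given in the sources used here, so these values are uncertain to the extent that such neighbors were expressed. Cell cycle genes differed between the same libraries. The summed level of 12 G2/M genes was 929 to 1046 CPM in shMCM7 Dox libraries and 1306 to 1387 CPM in shMCM7 noDox libraries, with 5 of the 12 called lower, against 6.45% of all genes, and 0 at 0 counts. The summed level of 11 G1/S genes was 1589 to 1719 CPM against 1885 to 2020 CPM, with 8 of the 11 negative and 0 called. The part of the cell cycle in the one-carbon values was not tested.

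In the serine pathway the middle step had the largest difference. PSAT1 (ENSG00000135069, chromosome 9 from 78297143 to 78330093), the aminotransferase, was at 149, 143 and 157 CPM in shMCM7 Dox libraries and at 311, 403 and 319 CPM in shMCM7 noDox libraries. The parental libraries had 416, 372 and 386 CPM of PSAT1 with Dox and 350, 400 and 288 CPM without, so that the shMCM7 Dox libraries did not overlap with any other A375 group. The share of all genes for which this held is not given. The log2 fold change within shMCM7 cells was -1.20 ± 0.095, a 2.31-fold lower level, and -1.27 without shMCM7 noDox 1. PHGDH (ENSG00000092621, chromosome 1 from 119648411 to 119744226), which commits 3-phosphoglycerate to serine, was at 247, 258 and 306 CPM against 346, 377 and 336 CPM (log2 fold change -0.39 ± 0.084). PSPH (ENSG00000146733, chromosome 7 from 56011051 to 56051604), the phosphatase of the last step, was at 66.5, 68.0 and 70.1 CPM against 86.7, 89.7 and 78.5 CPM (-0.32 ± 0.061). The level of PSAT1 relative to PHGDH was 0.659 ± 0.052 in shMCM7 Dox libraries and 1.15 ± 0.10 in shMCM7 noDox libraries (SD, n = 3 each). Likewise, MTHFD2 relative to the cytosolic MTHFD1 was 0.313 ± 0.024 and 1.03 ± 0.29, whereas SHMT2 relative to SHMT1 was 4.47 ± 0.22 and 3.98 ± 0.24. Parental A375 libraries, without the shRNA, had 4.23 ± 0.15 of this last ratio with Dox and 3.51 ± 0.24 without. The sum of the 4 mitochondrial genes over the cytosolic SHMT1 and MTHFD1 was 2.02 ± 0.082 in shMCM7 Dox and 2.41 ± 0.21 in shMCM7 noDox libraries. It was 2.67 ± 0.087 in parental Dox and 2.26 ± 0.17 in parental noDox libraries. The ranges of shMCM7 Dox (1.93 to 2.08) and parental noDox libraries (2.07 to 2.38) overlapped. These are ratios of CPM per kilobase of the principal transcript of each gene. They depend on the lengths used and are read between groups only.

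The parental libraries show the values with and without Dox where no shRNA was carried. The set was named for the drop of MTHFD2 in shMCM7 cells, but the parental libraries were in view when it was chosen and are not wholly independent of it. In A375 parental cells 0 of the 10 genes were called and 0% of the 15993 genes tested, whereas 7.01% of them (1121 genes) had p under 0.05 before adjustment by edgeR and DESeq2 called 2 genes. Of the 10, 5 had an unadjusted p under 0.05. PHGDH was at 376, 367 and 398 CPM with Dox and 321, 338 and 306 CPM without (log2 fold change 0.24 ± 0.054, edgeR FDR 0.503). SHMT2 was at 433, 413 and 443 CPM with Dox and 381, 373 and 346 CPM without (0.23 ± 0.053, edgeR FDR 0.503). For both genes the groups did not overlap, which also held for MTHFD2 (0.27 ± 0.094, edgeR FDR 0.614). These 3 were the genes whose groups lay apart with higher values, against 6.18% of all genes, and TYMS lay apart with lower values (-0.12 ± 0.047, FDR 0.645), against 6.66%. ALDH1L2 overlapped (0.26 ± 0.099, FDR 0.629), and PSAT1 was at 0.18 ± 0.095 (FDR 0.728) in the same edgeR fit. In the edgeR fit without a block none of the 10 genes thus passed the correction. With DESeq2, PHGDH and SHMT2 had FDRs of 0.029 and 0.041 at the same sizes, under the 1.5-fold threshold, and with a replicate block in edgeR the FDRs were 0.056 and 0.064. Of the 10 genes, 8 had positive log2 fold changes in parental cells, opposite to those in shMCM7 cells, and SHMT1 and TYMS were negative in both. Among all genes, 50.3% were negative in the parental comparison. How many of all genes had opposite signs is not given.

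**Figure D2:**
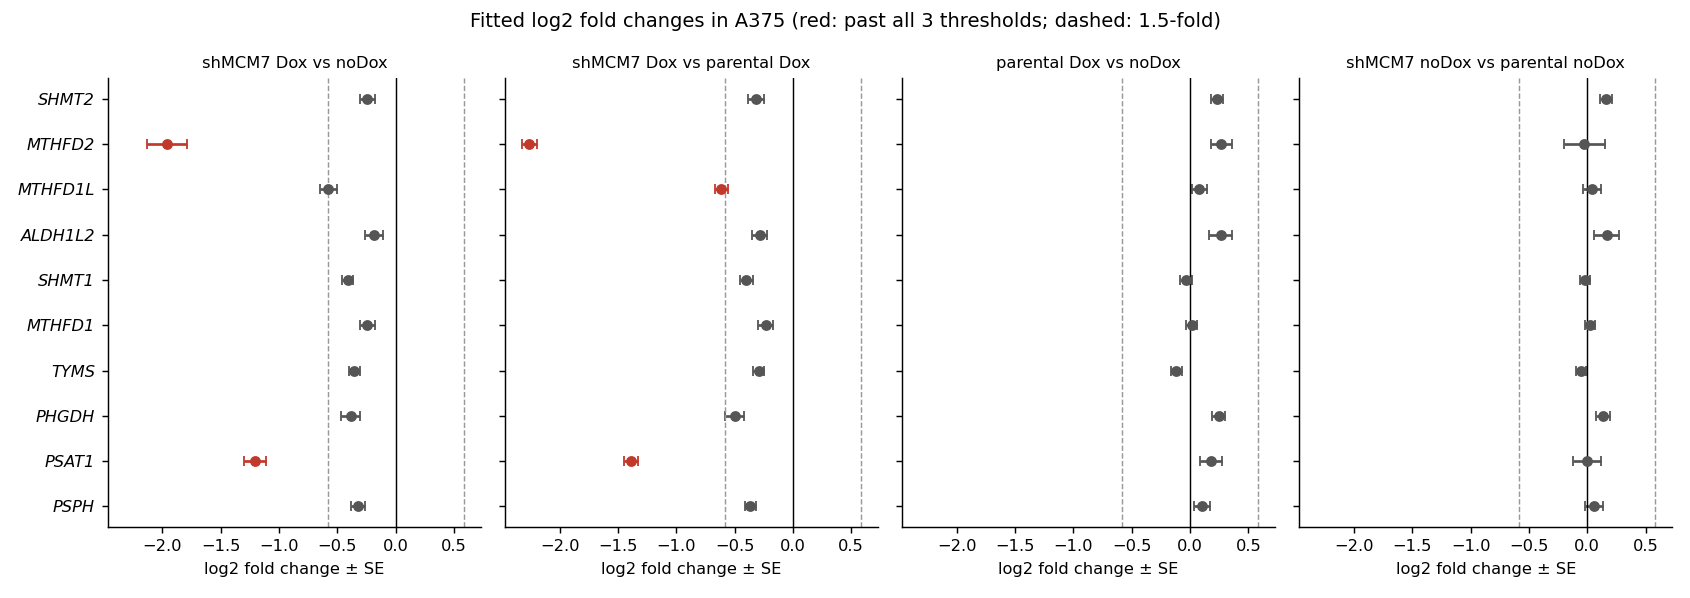
Fitted log2 fold change ± SE (horizontal axis) of the 10 genes in 4 A375 comparisons; red points passed the fold, p and FDR thresholds, and dashed lines mark 1.5-fold. MTHFD2 and PSAT1 stand to the left in both comparisons that include the shMCM7 Dox libraries, and all parental values lie between -0.12 and 0.27.

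The remaining A375 comparisons share libraries with the one that chose the set, so their values are given side by side. Against parental cells with Dox, shMCM7 cells with Dox had log2 fold changes of -2.26 ± 0.065 for MTHFD2, -1.39 ± 0.061 for PSAT1 and -0.62 ± 0.056 for MTHFD1L, and these 3 of the 10 genes were called lower, where 16% of all genes tested were called and 8.39% were called lower. MTHFD1L was not called when shMCM7 Dox 1 was left out (-0.58), and PHGDH, at -0.50 ± 0.081, was called without shMCM7 Dox 3 (-0.59). All 10 genes lay apart with lower values in this comparison, against 29.1% of all genes. The difference between the Dox effects of shMCM7 and parental cells was -2.23 ± 0.22 for MTHFD2, -1.39 ± 0.15 for PSAT1, -0.66 ± 0.10 for MTHFD1L and -0.63 ± 0.10 for PHGDH, and these 4 of the 10 were called, against 10.5% called and 6.17% called lower among all 16334 genes tested. PHGDH was not called there when shMCM7 Dox 1 (-0.57) or shMCM7 noDox 2 (-0.58) was left out. Without Dox, shMCM7 and parental A375 cells had 0 of the 10 genes called, against 1.65% of all genes, that is 266 genes, or 484 in a fit with a replicate block. Their log2 fold changes lay between -0.06 for TYMS and 0.17 for ALDH1L2. SHMT2 was at 0.16 ± 0.052 and MTHFD2 at -0.03 ± 0.18, or 0.18 without shMCM7 noDox 1.

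In A549 the comparison by label gave no call. Between the libraries labelled shMCM7 Dox and shMCM7 noDox, 0 of the 10 genes and 0% of the 13550 genes tested were called by edgeR, 61 genes had p under 0.05 before adjustment, and DESeq2 called 0 too. The library values show where the spread lies. MTHFD2 was at 328, 261 and 94.8 CPM in the libraries labelled shMCM7 Dox 1, 2 and 3, and at 257, 90.9 and 264 CPM in those labelled shMCM7 noDox 1, 2 and 3. The libraries labelled parental Dox had 248, 264 and 269 CPM, and those labelled parental noDox had 292, 96.3 and 258 CPM. The 3 lowest values of MTHFD2 thus came from the 3 libraries low in MCM7, which carry different labels, and the next value was 2.57-fold higher. How many of all genes had this order is not given, so it is not read as particular to MTHFD2. By label, MTHFD2 differed by 0.16 ± 0.53 on the log2 scale in shMCM7 libraries (95% interval -0.88 to 1.21, edgeR FDR 1.00) and by 0.28 ± 0.35 in parental ones (edgeR FDR 0.706).

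PSAT1 was lowest in the same libraries of A549. It was at 370, 300 and 133 CPM in the libraries labelled shMCM7 Dox 1 to 3, at 328, 129 and 293 CPM in shMCM7 noDox, at 268, 285 and 284 CPM in parental Dox and at 305, 128 and 309 CPM in parental noDox. The gap from the third to the fourth lowest library was 2.02-fold. MTHFD1L was lowest there as well, with 35.0, 33.4 and 30.2 CPM in shMCM7 Dox 3, shMCM7 noDox 2 and parental noDox 2 against 45.1 to 56.1 CPM in the other 9. For PSAT1 and MTHFD1L too, the share of all genes with this order is not given. By label, PSAT1 differed by 0.10 ± 0.45 in shMCM7 libraries (edgeR FDR 1.00) and by 0.18 ± 0.30 in parental libraries (edgeR FDR 0.781). With the libraries labelled shMCM7 Dox 3 and shMCM7 noDox 2 left out, the differences were 0.18 for MTHFD2 and 0.11 for PSAT1, again with 0 genes called. In the parental A549 comparison 0 of the 10 and 0% of 13494 genes were called and 1137 genes had p under 0.05 before adjustment by edgeR, while DESeq2 called 9 genes in all.

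Other genes of the set were ordered differently in A549. TYMS was at 236, 254 and 249 CPM in the libraries labelled shMCM7 Dox 3, shMCM7 noDox 2 and parental noDox 2, the 3 highest values, and at 189 to 230 CPM in the other 9. The share of all genes highest in these libraries is not given either. TYMS was at 198 ± 7.44 CPM in the libraries labelled parental Dox and 227 ± 20.6 CPM in parental noDox (SD, n = 3 each), which did not overlap (log2 fold change -0.19 ± 0.090, edgeR FDR 0.507; 11.1% of all genes lay apart with lower values). PHGDH was highest in shMCM7 Dox 3 (76.4 CPM) and shMCM7 noDox 2 (73.1 CPM) and ninth in parental noDox 2 (63.4 CPM), within a range of 40.8 to 76.4 CPM. SHMT2, at 141 to 172 CPM, SHMT1, at 98.6 to 117 CPM, MTHFD1, at 307 to 358 CPM, ALDH1L2, at 12.9 to 20.7 CPM, and PSPH, at 49.1 to 56.9 CPM, had no gap of the kind seen for MTHFD2, as the step from the third to the fourth lowest library was at most 1.04-fold. This step shows a drop only and cannot show high values in the same libraries. The correlation of log2 level with MTHFD2 in A549 was -0.609 for MTHFD1, -0.477 for SHMT1 and -0.450 for ALDH1L2. It was 0.424 for SHMT2 and 0.054 for PSPH. Apart from leaving out those 2 libraries, which was chosen after seeing their MCM7 counts, A549 libraries were compared by label alone.

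**Figure D3:**
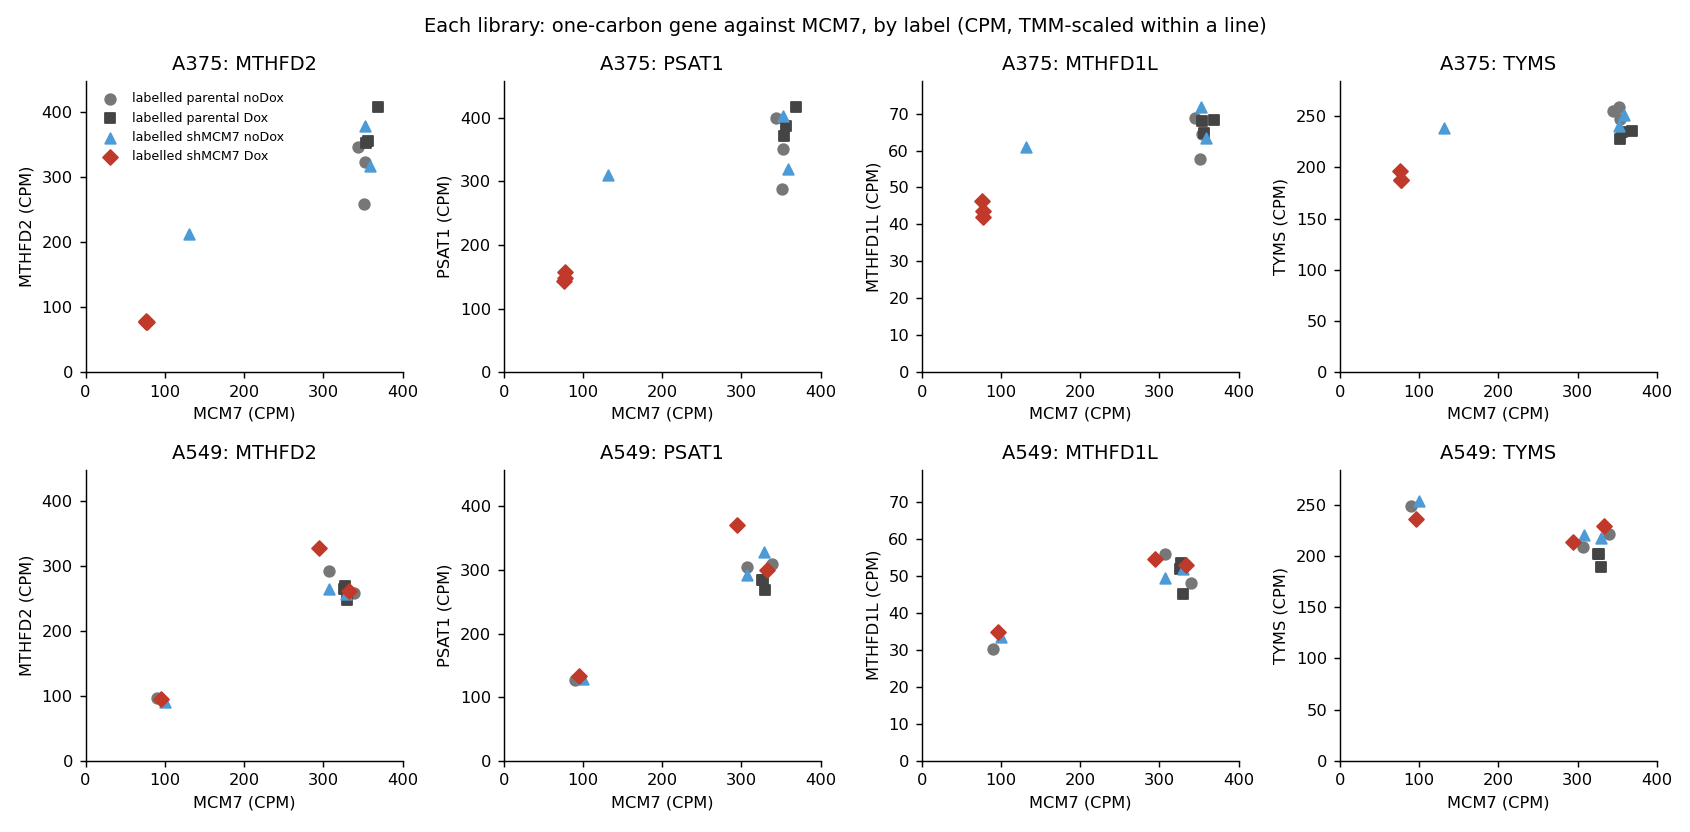
Level of MTHFD2, PSAT1, MTHFD1L and TYMS (vertical axes, CPM) against MCM7 (horizontal axis, CPM) in each of the 12 A375 libraries (top) and 12 A549 libraries (bottom), with symbols for the labels. The A549 libraries near 100 CPM of MCM7 carry 3 different labels and have 90.9 to 96.3 CPM of MTHFD2, and their TYMS values are the highest of the line.

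The lines were set side by side with their parental libraries, 6 against 6, in a fit with Dox as a covariate. A375 had higher PHGDH (5.99-fold, log2 2.58 ± 0.095, edgeR FDR 8.1e-12), ALDH1L2 (4.77-fold, 2.25 ± 0.10, FDR 8.1e-11) and SHMT2 (2.32-fold, 1.21 ± 0.059, FDR 1.6e-10), and lower MTHFD1 (log2 -0.78 ± 0.043, FDR 6.4e-10). These 4 of 10 genes were called, against 59.5% of the 15986 genes tested (31.5% higher and 28% lower). PSPH (log2 0.51 ± 0.052), MTHFD1L (0.35 ± 0.12) and SHMT1 (-0.18 ± 0.044) were past the FDR threshold but under 1.5-fold, with edgeR FDRs of 4.5e-07, 0.0127 and 0.00200. MTHFD2 (0.41 ± 0.20, edgeR FDR 0.0687), PSAT1 (0.38 ± 0.17, FDR 0.0546) and TYMS (0.09 ± 0.044, FDR 0.0692) did not pass. The A549 side includes the library labelled parental noDox 2, low in MCM7, with 96.3 CPM of MTHFD2 and 128 CPM of PSAT1. With each library left out in turn, MTHFD2 lay between 0.28 and 0.57 and PSAT1 between 0.26 and 0.49. PHGDH, for instance, was at 306 to 398 CPM in parental A375 and 40.8 to 63.4 CPM in parental A549 libraries. The line, the depth and any difference in library preparation cannot be told apart here.

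Levels of different genes were compared per kilobase of the principal transcript. In parental A375 noDox libraries the order was PSAT1 with 158 ± 25.5 CPM per kilobase, TYMS with 153 ± 3.42, SHMT2 with 144 ± 7.25 and PHGDH with 124 ± 6.09 (SD, n = 3 each), then MTHFD2 with 69.5 ± 10.2, MTHFD1 with 65.3 ± 1.72, SHMT1 with 41.2 ± 0.769, PSPH with 37.5 ± 4.08, MTHFD1L with 17.7 ± 1.57 and ALDH1L2 with 9.16 ± 1.51. The ranges of the first 3 overlapped, as did those of MTHFD2 and MTHFD1 and those of SHMT1 and PSPH. In the shMCM7 Dox libraries MTHFD2 was at 17.5 ± 0.269 CPM per kilobase, the eighth of the 10 instead of the fifth, and PSAT1 at 68.5 ± 3.19 was the fourth instead of the first. The order depended on the length used. Per kilobase of all annotated exons, MTHFD2 went from the fourth to the seventh and PSAT1 from the first to the third, and PHGDH in parental noDox libraries was at 34.9 ± 1.71 in place of 124 ± 6.09. In A549 parental Dox libraries PSAT1 (128 ± 4.38) and TYMS (119 ± 4.48) led, and PHGDH was the eighth with 21.0 ± 1.28 CPM per kilobase.

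**Figure D4:**
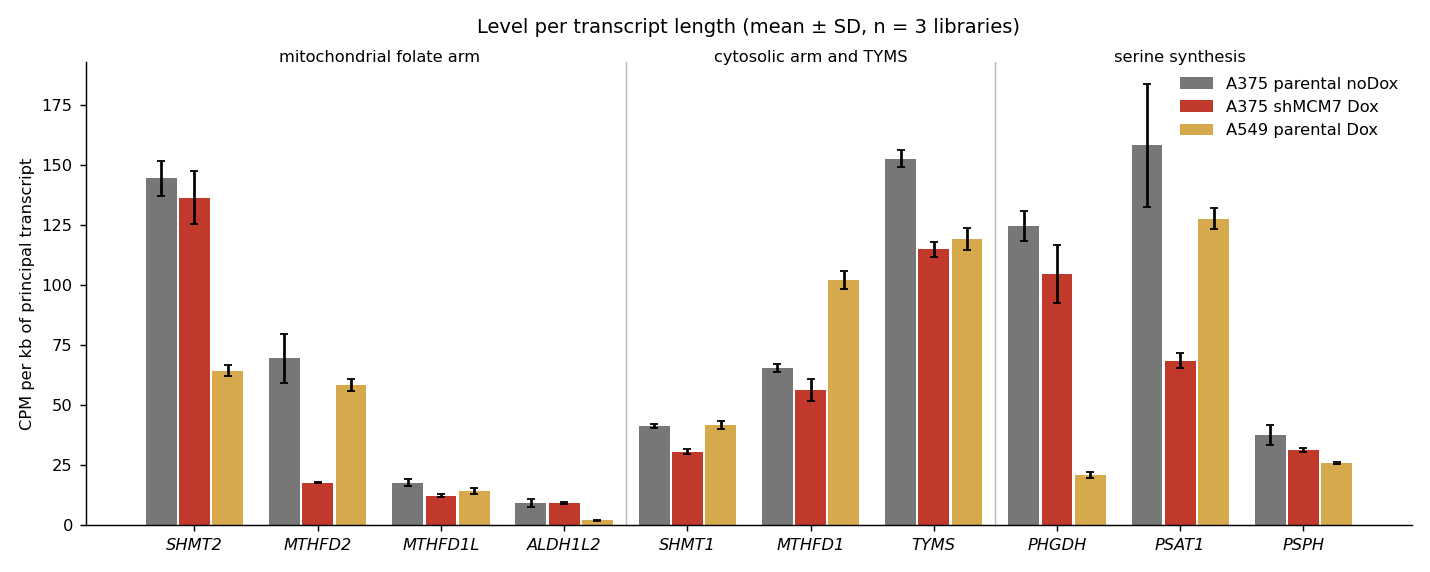
Mean level per kilobase of principal transcript (bars from 0, ± SD, n = 3) in 3 groups, ordered by role. MTHFD2 is at 69.5 in A375 parental noDox, 17.5 in A375 shMCM7 Dox and 58.4 in A549 parental Dox libraries, and PHGDH is at 124, 104 and 21.0.

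Genes around the pathway came from 9 wider lists with 82 genes, of which 78 were tested in A375 shMCM7 cells. With Dox, 10 were called lower and 2 higher, against the 12% called of all genes. Of the folate uptake and retention genes, 2 of 6 were called lower. One was SLC25A32, the mitochondrial folate carrier, at 36.8, 38.7 and 35.0 CPM with Dox and 52.8, 67.1 and 66.1 CPM without (log2 fold change -0.76 ± 0.091). The other was FOLR1, a folate receptor, at under 1 CPM in every A375 library (-0.81). FPGS, which traps folate in cells, was at 0.15. Of 9 other folate cycle enzymes, FTCD was called higher (0.93) at 2.3 CPM or less. GLDC, the decarboxylase of the glycine cleavage system, was at 5.52, 5.64 and 4.98 CPM with Dox and 11.6, 10.6 and 11.4 CPM without (-1.06 ± 0.083), and it was the 1 of 6 genes called in its list. Its partner DLD was at 0.00. In the list for serine and glycine transport and breakdown, the glycine transporter SLC6A9 was the 1 of 9 genes called (-0.59), and the neutral amino acid transporter SLC1A5 was at -0.17.

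The lists of pathways that consume one-carbon units were short, and their calls are read against the 12% of all genes called (6.45% lower). None of 10 purine synthesis genes was called (median 0.03, range -0.53 to 0.44), with IMPDH2 at 0.29. None of 9 genes for thymidylate and deoxynucleotide synthesis was called (median -0.09, range -0.54 to 0.86), with the ribonucleotide reductase subunit RRM2 at -0.38. In lists of this size 0 calls cannot be told from that share. In the methionine cycle and transsulfuration, CTH (-0.68) and CBS (-0.65), the enzymes from homocysteine to cysteine, were called lower out of 9 genes, while MAT2A, which makes S-adenosylmethionine, was at -0.06. All 15 genes of the list of ATF4 and its other targets had negative log2 fold changes and 4 were called lower, against 49.4% negative and 6.45% called lower among all genes. These are values of the libraries that chose MTHFD2, and the list was chosen with earlier results known, so nothing is read from the counts. SLC7A5, a subunit of the leucine transporter, was at 502, 450 and 397 CPM with Dox and 1420, 1614 and 1126 CPM without (-1.63 ± 0.13), and its partner SLC3A2 at 244, 209 and 205 CPM against 519, 537 and 401 CPM (-1.15). ATF5 (-0.75), a related factor, and the glutathione-degrading CHAC1 (-0.72) were the other two. ATF4 mRNA itself was at 283, 279 and 311 CPM with Dox and 394, 396 and 379 CPM without (-0.42 ± 0.057), under the 1.5-fold threshold, as was the alanyl-tRNA synthetase AARS (-0.42). MYC was called higher (0.63), at 20.4 to 25.3 CPM with Dox and 13.1 to 15.6 CPM without, and its partner MAX was at -0.08. In parental A375 cells, 0 of the genes tested in these lists were called. As 0% of all 15993 genes tested were called there, nothing about the lists is read from this.

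**Figure D5:**
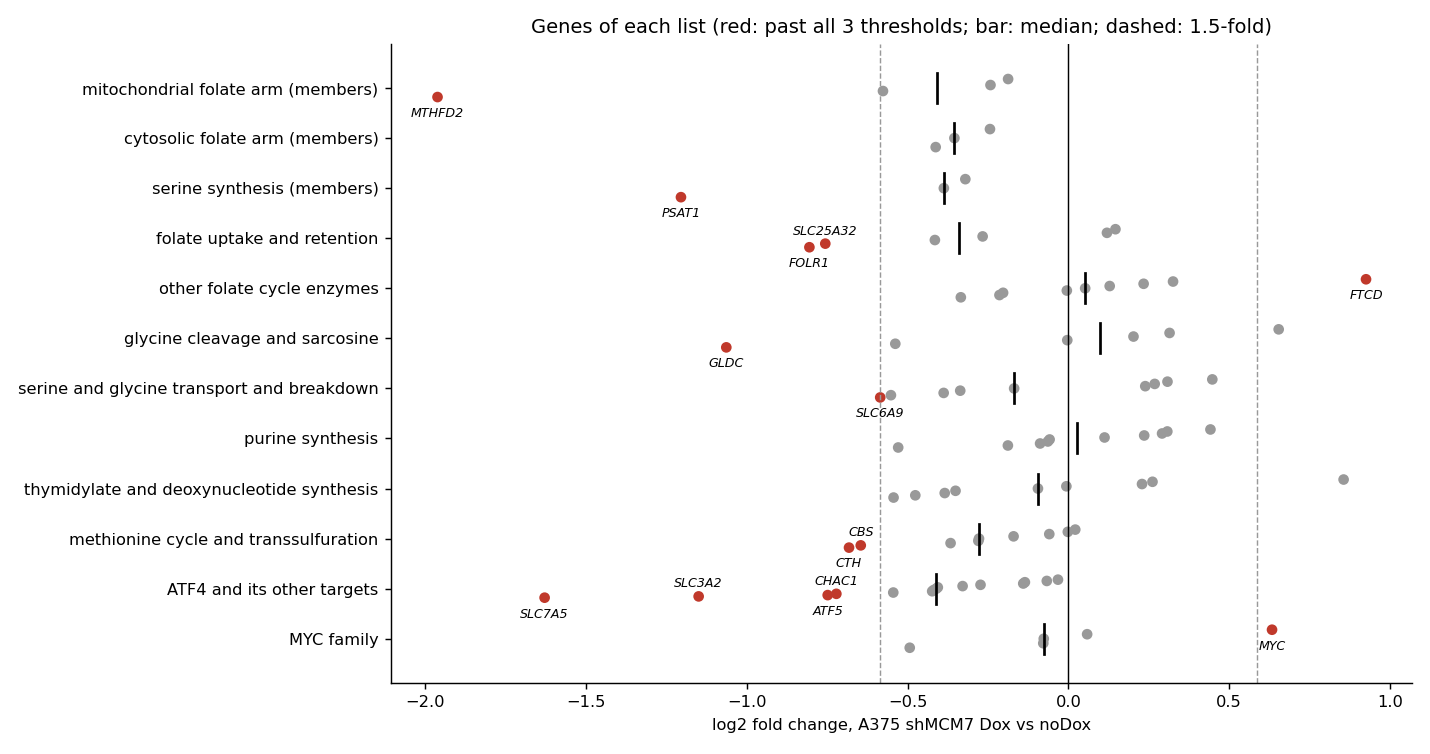
Log2 fold change with Dox in A375 shMCM7 cells (horizontal axis) of each gene tested, by list; red points are called genes, black bars are medians and dashed lines mark 1.5-fold. The list of ATF4 and its other targets lies wholly below 0 with a median of -0.41, and the purine synthesis list is spread around 0.

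In A549, some of the wider genes were low in the same 3 libraries. The genes given here are examples, and how many of the wider genes had this order is not given. SLC25A32 was at 14.6, 18.1 and 17.6 CPM in the libraries labelled shMCM7 Dox 3, shMCM7 noDox 2 and parental noDox 2, and at 39.5 to 52.6 CPM in the other 9. SLC7A5 was at 711, 734 and 617 CPM there and at 1208 to 1620 CPM in the others. ATF4 mRNA was not low in these libraries, at 299, 278 and 285 CPM against 225 to 243 CPM, which is the opposite order to that in A375. GLDC was at 34.2, 37.8 and 42.5 CPM against 52.5 to 88.4 CPM.

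The genes whose log2 level followed MTHFD2 most closely over the 12 A375 libraries were taken from 11451 genes with a mean of at least 5 CPM. They were HNRNPUL2-BSCL2 (r = 0.993), IDH1 (0.990), SLC25A32 (0.989), PSAT1 (0.988) and TULP3 (0.988), and the points share the 3 shMCM7 Dox libraries that set them apart. Over the 9 A375 libraries outside that group the values were 0.915, 0.853, 0.881, 0.859 and 0.800. These 9 libraries include shMCM7 noDox 1, which was also low in MCM7. It was the lowest of the 9 for MTHFD2, HNRNPUL2-BSCL2, IDH1, SLC25A32 and TULP3, but not for PSAT1. The genes were picked over libraries that include these 9. Over the 12 A549 libraries they were 0.939, 0.202, 0.986, 0.990 and -0.576, so that IDH1, the cytosolic isocitrate dehydrogenase, and TULP3 did not follow MTHFD2 in that line. HNRNPUL2-BSCL2 is a read-through transcript that shares reads with its parent genes and is uncertain. Among the set, MTHFD1L had r = 0.979 in A375 and 0.966 in A549, whereas TYMS had 0.891 and -0.777 and PHGDH 0.852 and -0.684. MCM7 itself was at 0.966 in A375 and 0.975 in A549. In A375, MTHFD1L ranked 63, TYMS 1254, PHGDH 1712 and MCM7 210 of the 11451 genes. Over the 9 A375 libraries without shMCM7 Dox, r was 0.811 for MTHFD1L, -0.292 for TYMS, 0.569 for PHGDH and 0.788 for MCM7. These correlations describe the libraries, which fall into separate clusters of high and low MTHFD2.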

How the data were processed

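RNA from A375 and A549 cells was sequenced in 24 libraries. The authors deposited raw read counts per gene under Ensembl identifiers, with no normalization. The submitters' processing notes name bcl2fastq 2.19, Trimmomatic, STAR 2.7.1, featureCounts, edgeR and the build GRCh38.p10. Names and positions came from GENCODE 29 (21349 of 21386 identifiers found). Low-count genes were removed with filterByExpr, counts were scaled with TMM, and groups were compared with the quasi-likelihood test of edgeR 4.0.16 in R 4.3.3, with Benjamini-Hochberg adjustment over all genes tested and the libraries of the compared groups alone in each fit. Fold changes used a prior count of 0.125. A call needed a 1.5-fold change or more, p under 0.01 and FDR under 0.05. Correlations used log2(CPM + 0.5). Steps were tested on simulated data.

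The 10 genes, the gene lists and the tests were chosen with earlier results of these data known. Named genes were MCM7, the 10 genes, every wider-list gene called in A375 shMCM7 cells, the most abundant gene not called per list (1 is not reported here), and the 5 genes most correlated with MTHFD2; ENOSF1, SLC4A5, AL122035.2 and AC137834.2 were named for overlap and the markers for the check of the lines. The per-library values of ATF4 were added after they were seen. Alternatives were DESeq2 1.42.0 (size factors, Wald test), no filter, at least 10 counts in every library, all 12 libraries of a line in the fit, the replicate block and each library left out. Same-numbered noDox libraries of shMCM7 and parental A375 cells deviated together (r = 0.318, 0.212 and 0.341 across genes), so the block is given beside that comparison. No 2 replicates were identical (chi-square per degree of freedom 1.98 to 114). Pseudogenes named for these genes were not in the tables.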

Additional observations from a re-analysis of the deposited data

Results flagged for a closer look

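The fitted difference between the Dox effects of shMCM7 and parental A375 cells passed the thresholds for 4 of the 10 genes, against 10.5% of all 16334 genes tested (6.17% lower). The libraries that chose the set are part of this comparison, so the values are a description and no test of the set. On the log2 scale the difference was -2.23 for MTHFD2, the gene the set was chosen for. For PSAT1 it was -1.39. For MTHFD1L the value was -0.66. For PHGDH it was -0.63, and this call was lost without shMCM7 Dox 1 or without shMCM7 noDox 2.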

How the results depend on the processing

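Of the 71 results recomputed, those not named here kept their direction and their side of the threshold under every alternative run. With a replicate block, 12 genes passed in A375 parental cells (0 without it, and 2 with the DESeq2 test) and 484 between shMCM7 and parental A375 cells without Dox (266 without it). The block changed no call of the 10 genes. The DESeq2 test called 9 genes in A549 parental libraries. When each library was left out in turn, the genes called ranged from 0 to 1 in A375 parental cells, from 173 to 321 between shMCM7 and parental A375 cells without Dox, and from 0 to 300 in A549 parental libraries, the highest without parental noDox 3. The lowest counts for shMCM7 against parental cells without Dox were 173 without parental noDox 2 and 177 without parental noDox 3. The sign of MTHFD2 in that comparison turned, with values from -0.22 to 0.18 (0.18 without shMCM7 noDox 1, 0.01 without parental noDox 1 and 0.06 without parental noDox 2). In A549 by label it turned in shMCM7 libraries for MTHFD2 (from -0.20 to 0.54) and PSAT1 (from -0.22 to 0.43), with -0.20 and -0.21 without shMCM7 Dox 1 and -0.20 and -0.22 without shMCM7 noDox 2. In A549 parental libraries it turned without parental noDox 2, the library low in MCM7, for MTHFD2 (-0.075, the lowest, up to 0.557) and PSAT1 (-0.136, the lowest, up to 0.371). None of these A549 values was called, and the cause was not tested. The calls of MTHFD1L and PHGDH near the 1.5-fold threshold moved with single libraries, as given with them. Same-numbered A375 shMCM7 libraries had correlations of 0.256, 0.0881 and 0.235, and each of these correlated best with its own number, which is a hint from the data. In A549 the mean correlations were -0.379 for shMCM7 and -0.0242 for parental libraries. The depth of A549 limits its low genes, such as ALDH1L2.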
